A study of Mus musculus with 6 samples.

Results

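The transcripts described here belong to 10 genes of the growth and differentiation factor (GDF) and bone morphogenetic protein (BMP) pathway in mouse Achilles tendon. They are the ligands Gdf5, Gdf6, Gdf10, Bmp2, Bmp4 and Bmp6, the type I receptors Bmpr1a and Bmpr1b, and the target genes Id1 and Id2. They were chosen by symbol, and all 10 were found among the 24411 genes of the count table. Total RNA was sequenced from 3 libraries of Scx-Cre/Piezo1 GOF tendons and 3 libraries of WT tendons, all from C57BL/6 mice aged 18 weeks. In the mutant, Cre recombinase under sequence of the tendon gene Scx acts on a Piezo1 allele that gains function (GOF). Piezo1 is an ion channel opened by mechanical force, and the allele is active in cells in which the Scx sequence is or was used. The labels do not say whether the WT mice carried Cre. They also do not say that each library came from a separate animal, so each p-value reflects the spread among these libraries, part of which may be technical.

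BMP and GDF ligands are secreted dimers that bind a complex of type I and type II receptor kinases. The active type I receptor phosphorylates Smad1, Smad5 and Smad9, which enter the nucleus with Smad4 and switch on genes such as the Id family. Id proteins lack a DNA-binding region and block basic helix-loop-helix transcription factors. In the skeleton, Gdf5 is known for joint and tendon formation, Bmp2 and Bmp4 for cartilage and bone formation, and secreted antagonists such as noggin and chordin keep the ligands from their receptors.

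The sequence upstream of the starts of both receptor genes and of Id2 is shown to set the receptors side by side and to give 1 of the Id targets. Bmpr1b has 3 windows in the table, and the one shown is that with its match nearest to the start. Of the others, 1 holds CAGAC at 245 bases before its start and 1 holds neither motif. The stretches are from RefSeq on GRCm38.p6, the minus strand, read 5′ to 3′, and each is cut where GENCODE M21 annotates an exon. All 3 lie within the GENCODE span of their gene and outside its exons, since that annotation also has starts further upstream. Capitals mark GGCGCC, a palindrome that Smad1 and Smad5 can bind with Smad4, and CAGAC, a Smad-binding box, searched on both strands.
Bmpr1a, chr14:34502688-34502796: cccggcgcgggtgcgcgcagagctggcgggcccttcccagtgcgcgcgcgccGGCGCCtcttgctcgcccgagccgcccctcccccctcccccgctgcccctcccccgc
Bmpr1b, chr3:141982265-141982514: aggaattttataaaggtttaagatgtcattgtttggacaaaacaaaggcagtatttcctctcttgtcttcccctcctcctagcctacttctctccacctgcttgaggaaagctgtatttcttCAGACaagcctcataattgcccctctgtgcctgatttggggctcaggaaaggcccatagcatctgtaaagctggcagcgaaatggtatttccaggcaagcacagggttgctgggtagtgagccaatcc
Id2, chr12:25096254-25096342: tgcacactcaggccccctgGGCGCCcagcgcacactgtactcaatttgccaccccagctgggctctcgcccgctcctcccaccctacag
The GGCGCC match began 198 bases before the RefSeq start of Bmpr1a and 231 bases before that of Id2. It was in 9.59% of the 32851 mouse windows of 250 bases before a start. CAGAC was in 42.2% of the windows, and in the Bmpr1b window shown it began 128 bases before the start. The Bmpr1a window had a GC content of 78.8% and the Bmpr1b window shown 46.8%, against a median of 52.4% over all windows. Of the 10 genes, 6 had a window in the table, all but Gdf5, Gdf6, Bmp2 and Id1, and none of their 8 windows held the AP-1 motif TGANTCA, which was in 6.75% of all windows. A match is a description of letters and not a bound site.

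Total counts lay between 8131527 and 12631659 in the Piezo1 GOF libraries and between 8519513 and 17180856 in the WT libraries. All 10 tenocyte markers used to check the tendon label were detected, with a summed level of 28533 to 49988 CPM (counts scaled to library size) in Piezo1 GOF and 4999 to 14668 CPM in WT. Piezo1 was at 153 ± 24.7 CPM in Piezo1 GOF and 121 ± 21.1 CPM in WT (SD, n = 3 each). The level of its transcript is no check of the genotype, because the allele alters the channel's function. Other cell types were present. Markers of skeletal muscle summed to 83242, 26828 and 68016 CPM in Piezo1 GOF replicates 1 to 3 and to 84017, 183378 and 157950 CPM in WT replicates 1 to 3. WT replicate 1 stood apart from the other libraries in its Schwann cell and smooth muscle markers. Its Schwann cell markers summed to 3732 CPM, against 464 to 607 CPM in Piezo1 GOF and 169 and 248.6 CPM in WT replicates 2 and 3, and its pericyte and smooth muscle markers summed to 4376 CPM, against 723 to 1020 CPM in Piezo1 GOF and 1384 and 1276 CPM in WT replicates 2 and 3. Results that rest on this library are therefore also given without it. In bulk tissue, fewer cells of a type and less RNA per cell cannot be told apart.

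**Figure D1:**
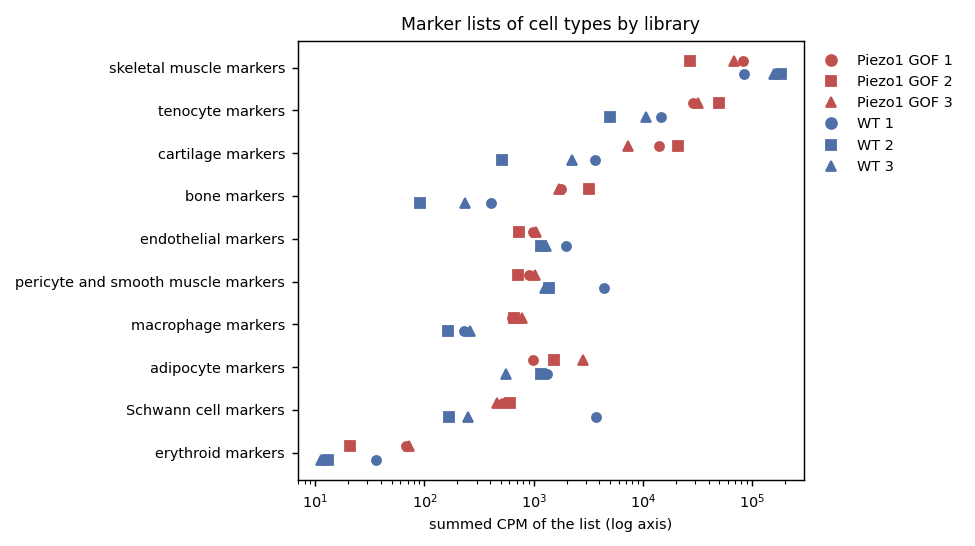
Summed CPM (log axis) of 10 marker lists, 1 point per library, with Piezo1 GOF in red above WT in blue. Skeletal muscle is lowest in Piezo1 GOF replicate 2 at 26828 CPM, tenocyte markers are higher in all 3 Piezo1 GOF libraries, and WT replicate 1 stands apart at 3732 CPM of Schwann cell markers.

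The receptors, ligands and targets were split in direction. The tendon ligand Gdf5, the ligand Bmp2, the receptor Bmpr1b and the target Id1 were higher in all 3 Piezo1 GOF libraries than in any WT library, and the ligand Bmp6 was lower in all 3. None passed the test over all genes. Of the 10 genes, 9 had enough counts to be tested, all but Gdf6. At an adjusted p of 0.05 in the quasi-likelihood test of edgeR, with Benjamini-Hochberg correction, 0 of the 9 passed in either direction, with a background over all 13466 tested genes of 0.0149% higher and 0% lower. Taken without adjustment, 5 of the 9 were higher with p under 0.05 (background 10.2%) and 1 was lower (background 9.59%). The groups did not overlap for 4 genes that were higher (background 13.6%) and 1 that was lower (background 12.1%). DESeq2 called 4 of them higher and 0 lower, with backgrounds of 3.73% higher and 2.74% lower, and edgeR's exact test also called 4 higher (background 3.36%) and 0 lower (background 1.72%). Limma voom called 0, with backgrounds of 0.72% higher and 0.141% lower. The median log2 fold change of the 9 genes was 0.90, against a median near 0 (-0.0045) over all tested genes. The genes were chosen with earlier results of these data known, so these counts describe them and are no independent evidence.

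**Figure D2:**
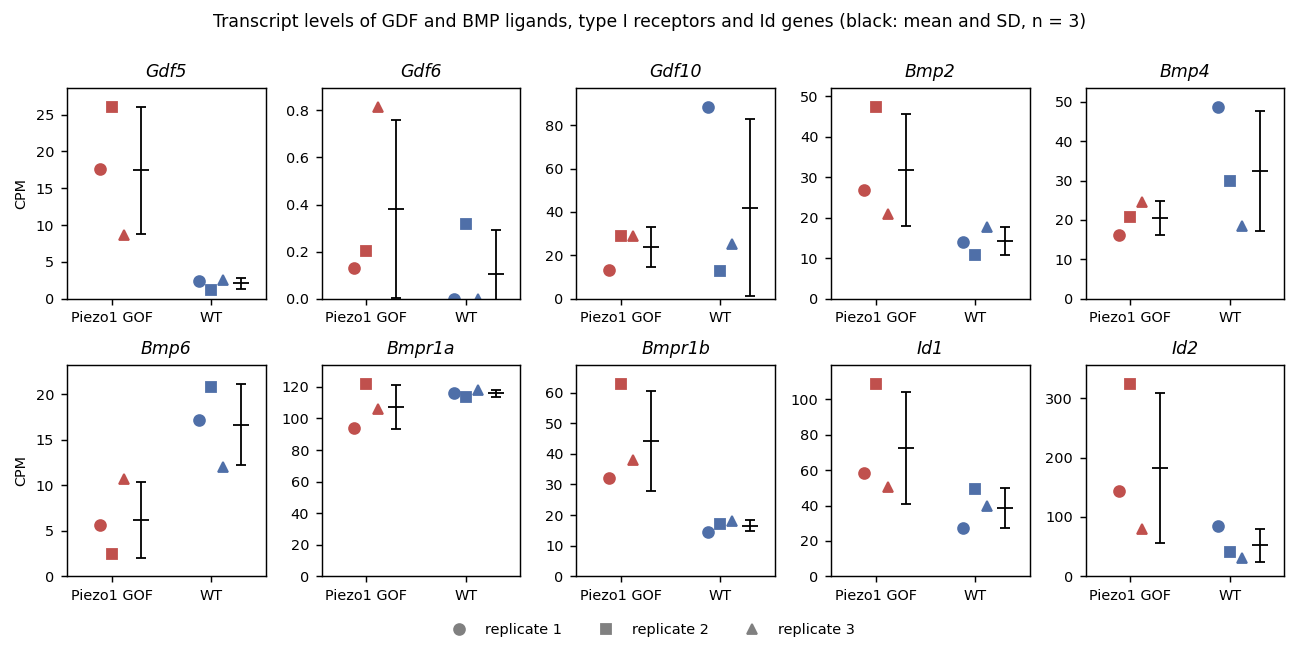
CPM of the 10 genes in each library, with Piezo1 GOF in red left of WT in blue, symbols for the replicate numbers and black marks for the mean and SD (n = 3 each; the bar of Gdf6 in WT is cut at 0). Gdf5, Bmp2, Bmpr1b and Id1 do not overlap and are higher in Piezo1 GOF, Bmp6 does not overlap and is lower, and Gdf10 and Bmp4 are highest in WT replicate 1.

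Gdf5 had the largest fold change of the 9 genes. This ligand of the Bmpr1b receptor is needed for joints to form and is a known inducer of tendon-like tissue. It was at 17.6, 25.98 and 8.67 CPM in Piezo1 GOF replicates 1 to 3, against 2.47, 1.21 and 2.60 CPM in WT replicates 1 to 3. The lowest Piezo1 GOF library was still above the highest WT library. The log2 fold change was 3.07 ± 0.49 (SE), or 8.42-fold, with an adjusted p of 0.0572 by edgeR's quasi-likelihood test, and it passed by DESeq2 (adjusted p = 9.06e-07) and by edgeR's exact test (7.95e-06). Counts behind these levels were low in WT, at 23, 19 and 23 per library, against 135, 259 and 117 in Piezo1 GOF. Without WT replicate 1 the quasi-likelihood test called it (adjusted p = 0.0418), and without any other single library it did not (0.0894 to 0.206). Gdf5 (ENSMUSG00000038259.4) spans 155941023 to 155945367 of chromosome 2 on mm10, minus strand. Its exons share 936 bases with Gm15557 on the opposite strand, and whether strand was used in counting is not given in the sources used here, so the value is uncertain to that extent.

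Gdf6, a close relative of Gdf5, was barely detected. Its counts were 1, 2 and 11 in Piezo1 GOF replicates 1 to 3, against 0, 5 and 0 in WT replicates 1 to 3. A count of 0 allows up to 0.322 CPM in WT replicate 1 and 0.339 CPM in WT replicate 3, taking 3 counts as the limit and covering counting error only. Its highest level, 0.815 CPM in Piezo1 GOF replicate 3, was too low for a test, and no difference was detectable at this depth. Gdf6 (ENSMUSG00000051279.2) spans 9844372 to 9862345 of chromosome 4, plus strand.

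Gdf10, also named BMP3b, is a divergent member of the family, and 1 WT library set its group's mean. It was at 13.3, 29.1 and 29.1 CPM in Piezo1 GOF replicates 1 to 3, against 88.5, 12.6 and 25.0 CPM in WT replicates 1 to 3. The groups overlapped, and the Piezo1 GOF libraries lay within the range of the WT libraries. The log2 fold change was -0.81 ± 0.63 (edgeR adjusted p = 0.495) with all libraries and 0.38 ± 0.42 (adjusted p = 0.621) without WT replicate 1, the library with the high Schwann cell and smooth muscle markers. The part of those cells in the Gdf10 value was not tested. Gdf10 (ENSMUSG00000021943.7) spans 33923587 to 33937983 of chromosome 14, plus strand.

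Among the BMP ligands, Bmp2 was higher in the mutant and Bmp6 lower, while Bmp4 overlapped. Bmp2, a strong inducer of bone and cartilage, was at 26.9, 47.4 and 20.98 CPM in Piezo1 GOF replicates 1 to 3, against 13.96, 10.9 and 17.8 CPM in WT replicates 1 to 3. The groups did not overlap, but Piezo1 GOF replicate 3 lay close to WT replicate 3. A log2 fold change of 1.17 ± 0.34 did not pass (edgeR adjusted p = 0.151), while DESeq2 (0.042) and the exact test (0.0441) called it. Bmp6, which endothelial cells of the liver make and which regulates iron through hepcidin, was at 5.59, 2.41 and 10.7 CPM in Piezo1 GOF replicates 1 to 3, against 17.2, 20.8 and 11.99 CPM in WT replicates 1 to 3. Its groups were separated by the narrow gap between the third replicates. Its log2 fold change of -1.41 ± 0.49 did not pass by edgeR (adjusted p = 0.186) or by DESeq2 (0.065). Its unadjusted p of 0.0178 was 0.0576 without WT replicate 2, and its log2 fold change was -2.06 without Piezo1 GOF replicate 3, the mutant library with the most Bmp6.

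The sum of the endothelial markers was also lower in Piezo1 GOF. It was 734 to 1056 CPM in Piezo1 GOF and 1172 to 1984 CPM in WT, and 2 of the 10 markers had an unadjusted p under 0.05, both lower. The list was not uniform. Its median log2 fold change was -0.42, but Cldn5 was at 0.40 and Emcn at 0.003, the others being negative. Vwf was at 587 CPM in WT replicate 1, against 116 and 171 CPM in WT replicates 2 and 3 and 83.0 to 129 CPM in Piezo1 GOF. The part of endothelial cells in the Bmp6 value was not tested. The last 224 exonic bases of Bmp6 overlap Txndc5 on the opposite strand, which makes the value of Bmp6 uncertain to that extent. Txndc5 was at 122, 151 and 152 CPM in Piezo1 GOF replicates 1 to 3, against 109, 50.9 and 97.8 CPM in WT replicates 1 to 3. Bmp4, which acts with Bmp2 on the same receptors and is needed in early limb and organ formation, was at 16.1, 20.9 and 24.6 CPM in Piezo1 GOF replicates 1 to 3, against 48.8, 29.96 and 18.4 CPM in WT replicates 1 to 3. Its log2 fold change was -0.65 ± 0.35 (edgeR adjusted p = 0.322) and -0.22 without WT replicate 1, where Bmp4 was highest. On mm10, Bmp2 (ENSMUSG00000027358.6) spans 133552159 to 133562885 of chromosome 2, plus strand. Bmp4 (ENSMUSG00000021835.15) spans 46383520 to 46390669 of chromosome 14, minus strand, and Bmp6 (ENSMUSG00000039004.6) spans 38345107 to 38500302 of chromosome 13, plus strand.

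The type I receptor kinases differed from each other. Bmpr1b, which binds Gdf5 with high affinity and is needed for digit cartilage, was at 32.1, 62.7 and 37.9 CPM in Piezo1 GOF replicates 1 to 3, against 14.4, 17.2 and 17.99 CPM in WT replicates 1 to 3. The WT libraries were close to each other and all 3 Piezo1 GOF libraries were well above them. The log2 fold change was 1.42 ± 0.28, or 2.68-fold, with an adjusted p of 0.0877 by edgeR's quasi-likelihood test, 0.00141 by DESeq2 and 0.00136 by the exact test. Bmpr1a, the broadly expressed receptor of Bmp2 and Bmp4, was at 93.9, 122 and 106 CPM in Piezo1 GOF replicates 1 to 3, against 116, 114 and 118 CPM in WT replicates 1 to 3. Its groups overlapped, with a log2 fold change of -0.11 ± 0.20 (edgeR adjusted p = 0.776). Bmpr1b (ENSMUSG00000052430.15) spans 141837136 to 142169425 of chromosome 3, minus strand. Bmpr1a (ENSMUSG00000021796.15) spans 34410734 to 34503341 of chromosome 14, minus strand, and 290 of its exonic bases are shared with the antisense gene Gm17110.

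A ratio of 2 genes within a library does not depend on how libraries are scaled. Per kb of exon, the count of Bmpr1b was 0.364, 0.549 and 0.380 of that of Bmpr1a in Piezo1 GOF replicates 1 to 3, against 0.132, 0.161 and 0.162 in WT replicates 1 to 3. The ratio averaged 0.431 ± 0.102 in Piezo1 GOF and 0.152 ± 0.0170 in WT (SD, n = 3 each), and Bmpr1a was the more abundant receptor in all 6 libraries. The ratio of Bmp2 to Bmp6 was 5.28, 21.6 and 2.16 in Piezo1 GOF, against 0.891, 0.572 and 1.62 in WT, without overlap. Gdf5 over Bmp4 was 1.05, 1.21 and 0.341 in Piezo1 GOF and 0.0491, 0.0393 and 0.137 in WT, again without overlap. The ratio of Bmp2 to Bmp4 overlapped, at 1.06, 1.44 and 0.539 in Piezo1 GOF and 0.181, 0.229 and 0.609 in WT. Id2 over Id1 also overlapped, at 1.17, 1.42 and 0.758 in Piezo1 GOF and 1.48, 0.399 and 0.375 in WT. The 5 ratios were chosen after the values were seen and are given without a test.

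**Figure D3:**
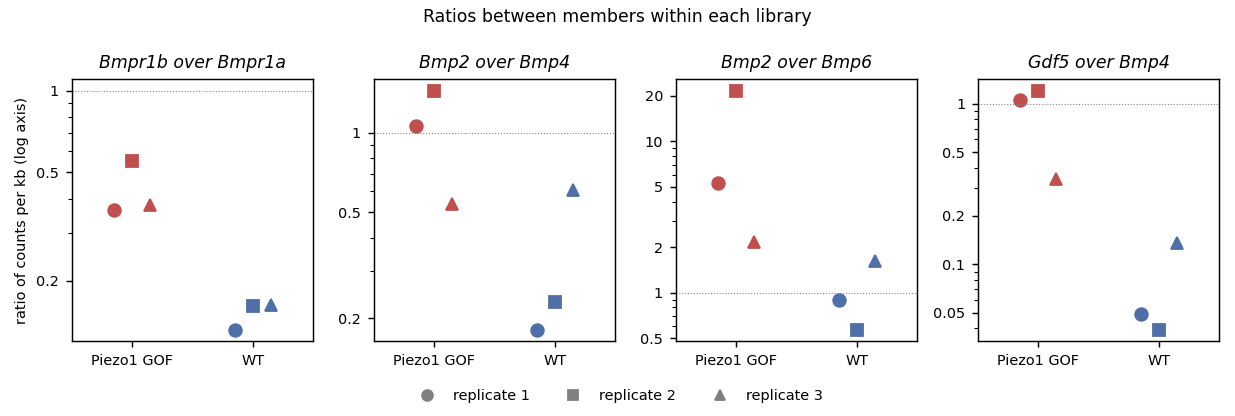
Ratios of counts per kb of exon between 2 genes in each library (log axes), with Piezo1 GOF in red left of WT in blue and a dotted line at equal levels. Bmpr1b over Bmpr1a is 0.364 to 0.549 in Piezo1 GOF and 0.132 to 0.162 in WT, and only Bmp2 over Bmp4 overlaps among the 4 ratios.

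Id1 and Id2, direct targets of the BMP Smads, had higher means in Piezo1 GOF, and neither passed the adjusted test. Id1 was at 58.1, 109 and 50.2 CPM in Piezo1 GOF replicates 1 to 3, against 27.1, 49.4 and 39.5 CPM in WT replicates 1 to 3. The groups did not overlap, by the small gap between Piezo1 GOF replicate 3 and WT replicate 2. The log2 fold change was 0.90 ± 0.34 (edgeR adjusted p = 0.208; unadjusted 0.0268), and leaving out Piezo1 GOF replicate 2, WT replicate 1 or WT replicate 3 gave an unadjusted p of 0.104, 0.0729 or 0.0619. Id2, which in other tissues restrains differentiation driven by basic helix-loop-helix factors, was at 143, 324 and 79.99 CPM in Piezo1 GOF replicates 1 to 3, against 83.99, 41.4 and 31.1 CPM in WT replicates 1 to 3. Its groups overlapped through Piezo1 GOF replicate 3 and WT replicate 1. With a log2 fold change of 1.80 ± 0.54, it missed by edgeR's quasi-likelihood test (adjusted p = 0.159) and passed by DESeq2 (0.0101) and the exact test (0.0311). Leaving out Piezo1 GOF replicate 2 gave 1.11 (edgeR adjusted p = 0.411), and leaving out WT replicate 1 gave 2.34 (0.0708). Id1 (ENSMUSG00000042745.9) spans 152736251 to 152737410 of chromosome 2, plus strand, and Id2 (ENSMUSG00000020644.9) spans 25093799 to 25097140 of chromosome 12, minus strand.

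Piezo1 GOF replicate 2 had the highest value of all 6 libraries for Gdf5, Bmp2, Bmpr1b, Id1 and Id2 and the lowest for Bmp6. The same library had the lowest skeletal muscle sum and the highest tenocyte sum. With the muscle score (the mean log2 CPM of the skeletal muscle markers) as a covariate, all 9 fold changes kept their sign, and 2 of the 9 were at an unadjusted p under 0.05. These were Gdf5 with a log2 fold change of 2.47 ± 0.43 (edgeR adjusted p = 0.166) and Bmpr1b with 1.06 ± 0.28 (adjusted p = 0.323). In that fit Id2 was at 0.94 ± 0.44, Bmp2 at 0.62 ± 0.27, Id1 at 0.59 ± 0.43 and Bmp6 at -0.87 ± 0.43. For the tenocyte markers the median log2 fold change without the covariate was 1.92. In the same fit Gdf5 was above that median, and Id2, Bmpr1b, Bmp2 and Id1 were below it. All 10 tenocyte markers were higher with an unadjusted p under 0.05. Markers of cartilage (5 of 6 tested), bone (5 of 6), macrophages (10 of 10) and adipocytes (5 of 8) were higher at the same level, none past the adjusted test. Chad held most of the cartilage sum, 13738 of 13914 CPM in Piezo1 GOF replicate 1. Col9a1, Col9a2, Matn1 and Cnmd reached at most 1.605 CPM and were not tested. Of the bone markers, Bglap and Bglap2 reached at most 1.43 CPM and were not tested. Sp7 reached 2.37 CPM, and Phex had a log2 fold change of -1.85. Markers of pericytes and smooth muscle (6 of 7 tested), Schwann cells (4 of 8) and skeletal muscle (2 of 22) were lower with an unadjusted p under 0.05. Again none was past the adjusted test. The pericyte and smooth muscle sum was lower in all 3 Piezo1 GOF libraries than in any WT library. Of that list, Rgs5, Kcnj8 and Abcc9 were lower in every Piezo1 GOF library than in any WT library. Acta2, Myh11 and Tagln were high in WT replicate 1 alone. Acta2 was at 1946 CPM there, 120 and 128 CPM in WT replicates 2 and 3, and 142 to 163 CPM in Piezo1 GOF. The Schwann cell sum of every Piezo1 GOF library was above that of WT replicates 2 and 3 and below that of WT replicate 1. Whether cells of these types had a part in the values of the ligands, receptors and Id genes was not tested.

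**Figure D4:**
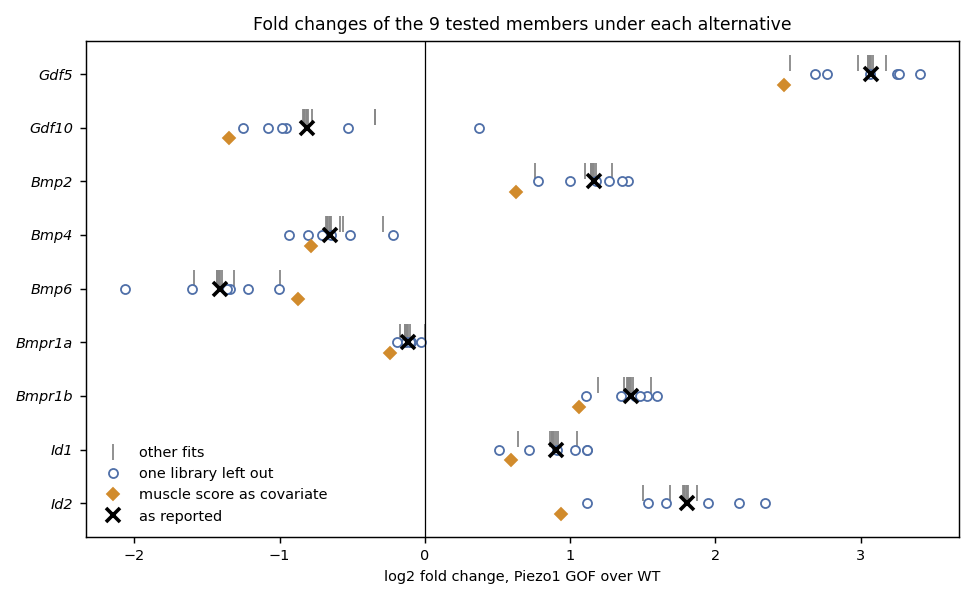
Log2 fold change (Piezo1 GOF over WT) of the 9 tested genes as reported (crosses), with 1 library left out (circles), with the muscle score as a covariate (diamonds) and under other fits (ticks). Gdf5 stays between 2.47 and 3.41, and Gdf10 changes sign to 0.38 without WT replicate 1.

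Levels per kb of exon allow the genes to be set against each other. In Piezo1 GOF the order of mean CPM per kb was Id2 (74.7), Id1 (62.3), Bmpr1a (16.9), Bmp4 (9.13), Bmp2 (8.94), Gdf5 (7.501), Bmpr1b (7.42), Gdf10 (4.57), Bmp6 (1.60) and Gdf6 (0.108). Id2 and Id1 overlapped, Bmpr1a exceeded every ligand in each Piezo1 GOF library, and Bmp4, Bmp2, Gdf5 and Bmpr1b overlapped. The Piezo1 GOF range of Gdf10 also overlapped those of Gdf5, Bmpr1b and Bmp6. In WT the order was Id1 (33.3), Id2 (21.4), Bmpr1a (18.3), Bmp4 (14.4), Gdf10 (8.07), Bmp6 (4.27), Bmp2 (3.99), Bmpr1b (2.77), Gdf5 (0.903) and Gdf6 (0.0301). In WT the ranges of Id1 and Id2, of Id2, Bmpr1a and Bmp4, and of Bmp6 and Bmp2 overlapped, and Gdf5 was below Bmpr1b in every library. The place of Gdf10 in WT rests on replicate 1. Its range of 2.42 to 16.99 CPM per kb overlapped those of Id2, Bmp4, Bmp6, Bmp2 and Bmpr1b. Without that library its mean was 3.61 CPM per kb, below the 4.21 of Bmp6 and the 4.03 of Bmp2 over the same libraries. Id2 averaged 14.9 CPM per kb in WT without that library, below the 18.3 of Bmpr1a.

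Other genes of the pathway were read from a list of 59, of which 44 had enough counts. None passed edgeR's quasi-likelihood test over all genes. Before adjustment, 9 had higher and 5 had lower levels with p under 0.05, against 10.2% and 9.59% of all tested genes. DESeq2 called 6 higher and 0 lower, against 3.73% and 2.74% of all genes. The median log2 fold change was -0.02, with 22 positive and 22 negative. Of the other BMP ligands, Bmp5, which acts in cartilage growth, was at 4.03, 4.81 and 6.15 CPM in Piezo1 GOF, against 6.55, 11.5 and 10.4 CPM in WT (log2 fold change -0.92 ± 0.34; edgeR adjusted p = 0.205). Bmp3 (-0.30 ± 0.88) and Bmp15 (-0.70 ± 1.13) overlapped, as did Mstn, the muscle growth inhibitor, at 1.03 ± 0.91 and Gdf11 at -0.09 ± 0.65. All 3 of these other BMP ligands had negative values, none of them past the test. That of Bmp3 rested on WT replicate 1, at 15.7 CPM. Its Piezo1 GOF libraries, at 5.59, 6.12 and 3.48 CPM, were above WT replicates 2 and 3, at 0.830 and 2.26 CPM. Bmp15 was near the floor, with 6, 4 and 17 counts in Piezo1 GOF and 21, 0 and 17 in WT.

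The remaining receptors showed no shared direction. Acvr1c, a type I receptor of activin and nodal also known as ALK7, was at 19.8, 12.0 and 19.9 CPM in Piezo1 GOF, against 7.20, 9.64 and 4.30 CPM in WT (log2 fold change 1.28 ± 0.36; edgeR adjusted p = 0.143; DESeq2 0.0392). The activin receptor Acvr1b was at -1.12 ± 0.45 and the endothelial BMP9 receptor Acvrl1 at 0.37 ± 0.21, both with overlap. Acvr1b was highest in WT replicate 2, at 42.2 CPM. It was at 16.2 and 15.0 CPM in WT replicates 1 and 3 and at 7.12 to 15.2 CPM in Piezo1 GOF. The type II receptor Bmpr2, shared by the BMPs, overlapped at 363 ± 73.2 CPM in Piezo1 GOF and 356 ± 27.4 CPM in WT (SD, n = 3 each; log2 fold change 0.03 ± 0.26), and the activin type II receptors were at -0.08 ± 0.19 for Acvr2a and -0.88 ± 0.41 for Acvr2b. Among co-receptors, the decoy receptor Bambi, itself induced by BMP signals, was at 42.1, 70.4 and 23.0 CPM in Piezo1 GOF, against 18.6, 12.1 and 17.5 CPM in WT (1.49 ± 0.39; edgeR adjusted p = 0.128; DESeq2 0.0111). Endoglin (Eng), an endothelial co-receptor, was at -0.68 ± 0.28 and the muscle-expressed hemojuvelin (Hjv) at -0.98 ± 0.47. The signal-transducing Smads overlapped, with log2 fold changes of 0.76 ± 0.43 for Smad9, -0.08 ± 0.21 for Smad1 and -0.29 ± 0.25 for the shared partner Smad4.

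Secreted inhibitors and further targets went both ways. Of 13 tested inhibitors, 5 had higher and 2 had lower levels with an unadjusted p under 0.05, against 10.2% and 9.59% of all tested genes, and the median log2 fold change was 0.53. Nbl1, a DAN family antagonist, was at 177, 145 and 164 CPM in Piezo1 GOF, against 114, 75.4 and 63.3 CPM in WT (0.94 ± 0.26; edgeR adjusted p = 0.145; DESeq2 0.0294). Follistatin (Fst), which binds activins and some BMPs, was at 43.2, 35.01 and 34.7 CPM in Piezo1 GOF, against 58.6, 66.6 and 55.3 CPM in WT (-0.68 ± 0.20; edgeR adjusted p = 0.153). Both of these genes had groups without overlap, in opposite directions. Named after their values were seen, others at that level were Chrd (1.04 ± 0.32), Twsg1 (0.86 ± 0.30) and Grem1 (2.16 ± 0.87), all higher, and Dand5 (-0.98 ± 0.39), lower. Of these, Grem1 overlapped, at 20.2, 20.6 and 4.82 CPM in Piezo1 GOF, against 5.26, 0.255 and 4.86 CPM in WT.

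Id3 resembled Id2, at 157, 550 and 165 CPM in Piezo1 GOF, against 133, 115 and 99.4 CPM in WT (log2 fold change 1.33 ± 0.48; edgeR adjusted p = 0.193; DESeq2 0.0482). Its groups did not overlap, and Piezo1 GOF replicate 2 was again the highest. Id4 was at -0.88 ± 0.67, with its highest level, 32.9 CPM, in WT replicate 1. The osteoblast transcription factor Dlx5 was at 6.76, 23.2 and 2.97 CPM in Piezo1 GOF, against 1.504, 0.639 and 1.70 CPM in WT (3.13 ± 0.78; edgeR adjusted p = 0.122; DESeq2 0.00121). The inhibitory Smads, which feed back on the receptors, had opposite signs, 0.74 ± 0.34 for Smad6 and -0.73 ± 0.34 for Smad7. Both overlapped between the genotypes.

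**Figure D5:**
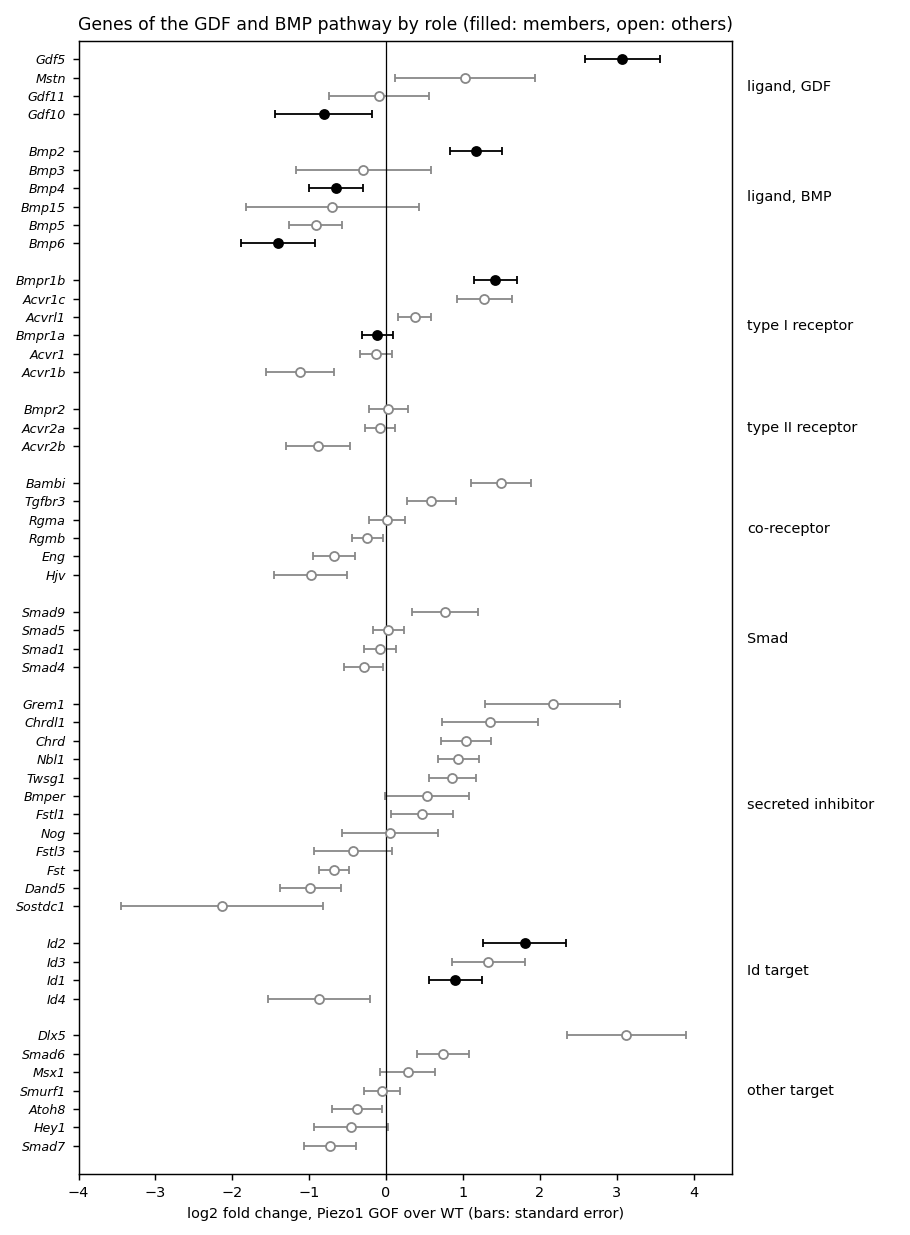
Log2 fold change (Piezo1 GOF over WT, bars for the standard error) of tested genes of the pathway, grouped by role, with the 10-gene set's tested members filled and other genes open. Values lie on both sides of 0 in every role, with Gdf5 at 3.07 and Dlx5 at 3.13 the highest.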

How the data were processed

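The authors deposited expected counts, that is estimated counts per gene, for 6 libraries, not scaled for depth or length. The submitters' processing notes name bcl2fastq, STAR, RSEM, edgeR and the build mm10, without versions. The annotation and the use of strand are not given in the sources used. Per the labels' protocols, total RNA was isolated with a Direct-zol kit and libraries were made with a RamDA-seq kit with not-so-random primers. Counts were rounded, filtered with filterByExpr (minimum count 10) and scaled by TMM. The quasi-likelihood test of edgeR compared Piezo1 GOF with WT, without covariates, and p-values were adjusted by Benjamini-Hochberg over 13466 genes. CPM used TMM-scaled library sizes (factors 0.897 to 1.10), and lengths were exon unions of GENCODE M21 on the same build. Replicates differed well beyond counting noise (38.7 to 133 for chi-square over its degrees of freedom). The tests were run on simulated counts first. Alternatives were other scalings, filters and tests, a replicate block, a muscle covariate, removal of muscle markers or of Rn45s and Lars2, and leaving out each library. The genes and lists were chosen with earlier results of these data known. The text names the 10 genes and, per role, up to 3 other tested pathway genes with the smallest p, and 1 pathway gene is counted but not reported here. Hjv and Cnmd stand in the table under older symbols. Software was R 4.3.3, edgeR 4.0.16, limma 3.58.1, DESeq2 1.42.0 and Python 3.11.15.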

Additional observations from a re-analysis of the deposited data

How the results depend on the processing

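The count of all genes past the threshold was 2 and that of the 10 pathway genes 0. The first was 0 with total counts unscaled, with the replicate block and with the muscle score as a covariate, 165 with no filter on low counts, 891 with DESeq2, 685 with the exact test, 116 with limma voom and 151 at an adjusted p of 0.1. The second was 2 with no filter (Gdf5 and Bmpr1b), 4 with DESeq2, 4 with the exact test and 2 at an adjusted p of 0.1. With 1 library left out, the counts ran from 0 to 228 for all genes and from 0 to 1 for the pathway genes, the highest both without WT replicate 1. The count of pathway genes at an unadjusted p under 0.05, whose alternatives were added after seeing the data, was 6 and became 2 with the muscle score as a covariate and 5 or 6 with 1 library left out. The causes of these changes were not tested. Of 153 fold changes of the 9 tested genes under 17 alternatives, 141 kept their sign and stayed short of the threshold, 11 passed it and 1 changed sign, that of Gdf10, which ran from -1.25 to 0.38 with 1 library left out. Scaling by total counts alone moved the median log2 fold change of all genes to 0.10. Same-numbered libraries did not deviate together (correlations -0.24, -0.171 and -0.0569). With 3 libraries per genotype, such correlations cannot exclude a pairing by number, and the main test used none. The replicate block gave 0 calls over all genes and left 6 pathway genes at an unadjusted p under 0.05. With 3 libraries per genotype, the 19 to 23 counts per WT library limit the precision for Gdf5, and Gdf6 had under 3 counts in 4 of the 6 libraries.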

Other observations

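Some other pathway genes were high in single libraries. The homeobox gene Msx2 had 1, 0 and 0 counts in Piezo1 GOF replicates 1 to 3 and 109, 0 and 0 counts in WT replicates 1 to 3. Sostdc1, a secreted BMP and Wnt antagonist, was at 3.90, 0.903 and 2.002 CPM in Piezo1 GOF replicates 1 to 3 and at 28.2, 0.383 and 1.02 CPM in WT replicates 1 to 3. Bmp3 was at 3.48 to 6.12 CPM in Piezo1 GOF and at 15.7, 0.830 and 2.26 CPM in WT replicates 1 to 3. Gdf1 was at 4.45 CPM in Piezo1 GOF replicate 3 and 3.96 CPM in WT replicate 2, and its estimated count rounded to 0 in the other 4 libraries. Mstn was at 1.82, 61.9 and 11.3 CPM in Piezo1 GOF replicates 1 to 3 and at 16.9, 7.98 and 12.2 CPM in WT replicates 1 to 3. These genes were named after their values were seen.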
